A study of Mus musculus with 90 samples.

Results

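The genes described are 10 factors of naive pluripotency, the state of mouse embryonic stem (ES) cells grown with LIF. They are Esrrb, Zfp42, Klf2, Klf4, Klf5, Tfcp2l1, Tbx3, Nr0b1, Prdm14 and Tcl1, taken by symbol from the count tables, and they are 10 of 24987 genes. All 10 passed the filter on low counts in every fit. RNA of J1 mouse ES cells and of their differentiated progeny was sequenced after depletion of ribosomal RNA, in 30 groups of 3 libraries each (n = 3 for every group below). The groups were 5 lines with different forms of CBX7, a chromobox subunit of Polycomb repressive complex 1 (PRC1). WT carried the normal protein. In CBX7-CaPS, CBX7 carried the compaction and phase separation (CaPS) domain of its paralogue CBX2, and CBX7-mCaPS carried a mutated form of that domain. The remaining lines were labelled CBX7 KO and CBX7-CaPS-R, and the labels do not say how any line was made or whether it is 1 clone. Cells were grown in serum with LIF on mouse embryonic fibroblast feeders, which were removed before differentiation. For embryoid bodies (EB) they were kept in hanging drops for 4 days and then in suspension, and collected on days 0, 6 and 10. For neural progenitor cells (NPC) they aggregated for 4 days without LIF, received 5 uM retinoic acid, and were collected on days 0, 6 and 8.

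Naive pluripotency is held by a network of transcription factors that activate one another. LIF acts through its receptor and STAT3 on Klf4, Tfcp2l1 and other targets, and Tbx3 is a further entry point downstream of PI3K signalling. Esrrb is an orphan nuclear receptor, Tfcp2l1 a grainyhead-family factor, and Klf2, Klf4 and Klf5 are zinc finger proteins that bind GC-rich CACCC-type elements. Zfp42 (Rex1) is a zinc finger gene widely used as a marker of the naive state, and Nr0b1 (Dax1) is a nuclear receptor that lacks the usual DNA-binding domain. Prdm14 represses de novo DNA methyltransferases and FGF signalling in ES cells, and Tcl1 is a co-activator of the kinase AKT. Naive cells lose these factors as they pass through a formative state into the germ layers. Tbx3, Klf4 and Klf5 are in addition known from differentiated tissues, Tbx3 from endoderm, limb and heart and the Klf genes from epithelia.

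Promoter sequence is shown for 3 genes, because that of Klf4 differs in base composition from those of Zfp42 and Tcl1. Of the 10 genes, 7 were matched to an entry of the promoter table used here, made from RefSeq (GRCm38.p6). Zfp42 lies at chr8:43295067-43307009 on the minus strand of mm10, Klf4 at chr4:55527137-55532475 (minus) and Tcl1 at chr12:105216755-105222737 (minus). The 250 bases before each start are given 5′ to 3′ on the gene's own strand, and capitals mark matches on either strand to CCNCNCCC (Kruppel-like factors) or ATGCAAAT (the octamer bound by POU factors), with overlapping matches merged.
Zfp42 promoter, chr8:43307010-43307259: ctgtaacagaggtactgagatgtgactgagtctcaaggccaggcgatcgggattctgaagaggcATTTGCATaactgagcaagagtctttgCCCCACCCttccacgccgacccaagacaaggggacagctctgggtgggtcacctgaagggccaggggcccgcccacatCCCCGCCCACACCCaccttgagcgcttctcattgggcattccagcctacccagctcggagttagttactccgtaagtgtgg
Klf4 promoter, chr4:55532476-55532725: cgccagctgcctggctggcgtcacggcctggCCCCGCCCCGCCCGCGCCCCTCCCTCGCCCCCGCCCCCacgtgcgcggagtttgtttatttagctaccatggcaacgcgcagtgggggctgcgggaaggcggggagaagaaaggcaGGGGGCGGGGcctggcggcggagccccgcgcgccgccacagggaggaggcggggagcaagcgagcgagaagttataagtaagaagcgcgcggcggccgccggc
Tcl1 promoter, chr12:105222738-105222987: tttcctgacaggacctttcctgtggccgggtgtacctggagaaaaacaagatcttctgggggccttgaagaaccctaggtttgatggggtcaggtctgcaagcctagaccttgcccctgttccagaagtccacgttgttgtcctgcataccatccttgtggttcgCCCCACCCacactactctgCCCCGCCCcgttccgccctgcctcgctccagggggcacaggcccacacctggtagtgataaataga
The Klf4 window held 32 CpG dinucleotides, the Zfp42 window 9 and the Tcl1 window 7, beside a median of 6 in 32817 promoter windows of the same length. CCNCNCCC was found in 7 of the 8 windows of the genes (Esrrb has 2 starts) and in 45.92% of all windows. The windows of the genes held from 52% (an Esrrb start) to 74% (Klf4) G and C, beside a median of 52.4% in all windows. The part of base composition in the motif share was not tested. The octamer stood in the Zfp42 window alone among these, and in 1.603% of all. TTCNNNGAA, the element of STAT factors, was found in 1 window of the genes, at Esrrb, and in 7.015% of all. AAGGTCA, an element of ESRRB, and AGGTGTGA, a T-box element, were found in 0 of the 8 windows, and in 4.083% and 1.118% of all.

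Library totals ranged from 10601858 to 55886291 counts in the EB series and from 11830340 to 59295504 in the NPC series, without CaPS-R, whose libraries held 11043361 to 109979089 (EB) and 11700345 to 29053288 (NPC). The CaPS-R libraries come from tables of their own, so CaPS-R and any batch they form cannot be told apart. Replicates numbered 1 of WT and CaPS in the EB series stood apart from the other EB libraries, with even numbers in 42.1% to 43.5% of counts from 1 to 20. Without CaPS-R, even numbers made up 73.5% to 94.1% in the other EB libraries and 76.4% to 90.5% in the NPC series. Most libraries thus had an excess of even counts, whose cause was not tested. The ribosomal precursor Rn45s took 88.7% of counts in mCaPS day 0 replicate 3 of the EB series, and 25.0% to 80.5% in the CaPS-R libraries. In the other libraries it took 2.73% to 63.0% (EB) and 4.24% to 50.3% (NPC). WT replicate 2 of the EB series had 44.8% to 49.5% on its 3 days. Cbx7 did not check the KO label: on day 0 of the EB series it stood at 87.8, 111 and 91.8 CPM in the line labelled KO and at 76.8, 132 and 126 in WT. The line is called KO below as its label has it. Pou5f1 and Nanog, which define ES cells, fell in WT in both series, and the neural marker sum of WT rose from 109 to 322 CPM on day 0 to 917 to 1412 CPM on day 8 of the NPC series. The labels do not say whether replicates came from separate cultures, so p-values measure the spread between these libraries. In bulk RNA, fewer cells with a gene and less of its RNA per cell cannot be told apart.

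In undifferentiated WT cells the naive factors spanned a wide range of levels. As CPM per kilobase on day 0 of the EB series, Zfp42 was highest at 234 ± 61.9 (SD), followed by Esrrb at 86.7 ± 32.1, Klf2 at 75.2 ± 25.2 and Klf5 at 70.6 ± 54.3. Nr0b1 (57.1 ± 9.19), Klf4 (47.2 ± 18.0), Tfcp2l1 (35.9 ± 14.1), Tcl1 (20.6 ± 2.43) and Tbx3 (15.4 ± 8.11) came next, and Prdm14 was lowest at 5.29 ± 1.07. From Esrrb to Tfcp2l1 each step between neighbours was smaller than the larger SD of the pair, as was that from Tcl1 to Tbx3. The steps from Klf5 to Nr0b1 and from Nr0b1 to Klf4 exceeded the SD of Nr0b1, and that from Tcl1 to Tbx3 the SD of Tcl1. On day 0 of the NPC series Zfp42 stood at 240 ± 10.4 and Prdm14 at 3.87 ± 0.153 CPM per kilobase.

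In WT embryoid bodies 9 of the 10 genes fell, and their time courses differed. By day 6, 5 of the 10 genes were called lower at an adjusted p below 0.05 (edgeR quasi-likelihood test, Benjamini-Hochberg), beside 4.62% of all genes. By day 10 the count was 9, beside 14.5% of all genes. Klf4, a LIF and STAT3 target, had the largest fall by day 6. Its CPM in replicates 1, 2 and 3 were 81.4, 164 and 185 on day 0, 5.8, 10.2 and 20.7 on day 6, and 3.07, 11.7 and 17.7 on day 10. The day 6 and day 0 libraries did not overlap, whereas those of days 6 and 10 did. Klf4 fell by 3.54 ± 0.68 (log2 fold change ± SE) by day 6 (adjusted p = 0.00106), and its day 10 value against day 6 was -0.18 ± 0.63 (adjusted p = 0.902).

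Nr0b1, the receptor without the usual DNA-binding domain, was not called by day 6. It stood at 121, 95.8 and 90.3 CPM on day 0, 93.8, 13.9 and 38.4 on day 6, and 2.8, 2.47 and 3.52 on day 10. The day 6 libraries of Nr0b1 overlapped those of day 0, and all 3 day 10 libraries lay below every earlier one. Its change was -1.07 ± 0.78 from day 0 to 6 (adjusted p = 0.489), and it fell by 4.05 ± 0.89 from day 6 to 10 (adjusted p = 0.00212). Esrrb, the orphan receptor, gave 230, 476 and 496 CPM on day 0, 98.7, 70.3 and 164 on day 6, and 4.89, 19.6 and 25.2 on day 10. It fell by 4.59 ± 0.81 over 10 days (adjusted p = 0.000104), to 4.13% of its day 0 mean. Zfp42 went from 550, 369 and 346 CPM through 131, 49.1 and 83.7 to 12.1, 10.6 and 17.4. The 3 days of Zfp42 did not overlap, and it fell by day 6 (-2.26 ± 0.67) and by day 10 (-4.98 ± 0.76; adjusted p = 0.0336 and 1.95e-05). Tcl1, the AKT co-activator, also had no overlap between days, with 36.3, 35.8 and 29.2, then 6.13, 4.89 and 6.56, then 0.623, 1.26 and 1.89 CPM. It fell by 4.72 ± 0.76 by day 10 (adjusted p = 3.57e-05).

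Klf2 (-2.53 ± 0.57), Klf5 (-3.19 ± 0.99), Tfcp2l1 (-3.68 ± 0.66) and Prdm14 (-3.37 ± 0.60) also fell by day 10 (adjusted p = 0.0013, 0.0157, 0.00012 and 0.000117). Klf2 kept the most of these 4, at 17.2% of its day 0 mean. Tbx3 was the exception in WT embryoid bodies. Its CPM were 32.1, 81.5 and 110 on day 0, 10.1, 15.4 and 30.5 on day 6, and 22.1, 23.8 and 71.4 on day 10, so that days 0 and 10 overlapped. The difference over 10 days was -0.93 ± 0.74 (adjusted p = 0.374). With the replicate number as a block, Tbx3 was -0.95 ± 0.26 (adjusted p = 0.0179) and all 10 genes were called by day 10. The block called 9 genes instead of 5 from day 0 to 6, and 8 instead of 5 from day 6 to 10, where 7 fell and Tbx3 rose by 1.00 ± 0.17 (adjusted p = 0.00238). Without the block, the 5 genes lower from day 6 to 10 (7.12% of all genes) were Esrrb, Zfp42, Nr0b1, Prdm14 and Tcl1. Without the first replicates of WT and CaPS, which stood apart, WT had 3 genes called by day 6, 9 by day 10 and 1 from day 6 to 10. Leaving out any 1 of the 6 libraries left 1 to 3 genes called by day 6. From day 6 to 10, 2 genes were called without WT day 10 replicate 1 or day 6 replicate 3, and 3 without day 10 replicate 2 or day 6 replicate 1.

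**Figure D1:**
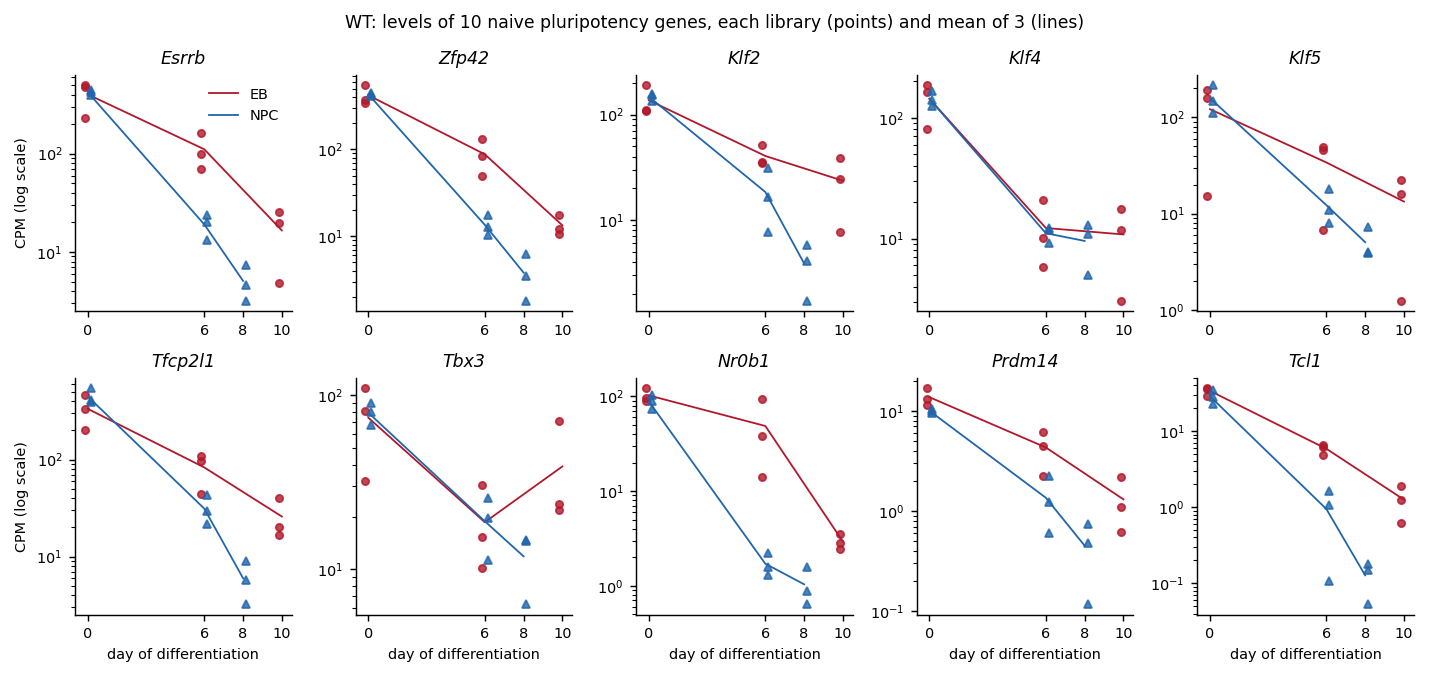
Levels of the 10 genes in WT as CPM on a log scale against day of differentiation. Circles are EB libraries, triangles NPC libraries and lines the means of 3 libraries. On EB day 10 all libraries lie below all day 0 libraries except for Klf5 and Tbx3, and the NPC line lies below the EB line on day 6 for Nr0b1 by the widest margin.

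With retinoic acid the whole set fell by day 6. All 10 genes were called lower in WT by day 6 of the NPC series (18.2% of all genes) and all 10 by day 8 (24.9%). Tcl1 fell furthest, from 23.1, 35.2 and 27.9 CPM on day 0 to 0.109, 1.08 and 1.65 on day 6 and 0.178, 0.0538 and 0.15 on day 8. Its 2 later days overlapped, through the low replicate 1 of day 6, and its change by day 8 was -7.81 ± 0.83 (adjusted p = 1.64e-08). The day 8 values of Tcl1 rest on very few counts, so the size of its fall and its rank are uncertain. Zfp42 (-6.84 ± 0.69), Nr0b1 (-6.43 ± 0.69), Esrrb (-6.38 ± 0.53) and Tfcp2l1 (-6.22 ± 0.69) followed over 8 days (adjusted p from 2.61e-10 to 3.52e-08). The CPM of Esrrb were 400, 442 and 422 on day 0, 13.3, 20.1 and 24 on day 6, and 3.2, 4.63 and 7.43 on day 8, with no overlap between days. Klf2 (-5.26 ± 0.63), Klf5 (-4.98 ± 0.61) and Prdm14 (-4.48 ± 0.72) fell less. Klf4 (-3.91 ± 0.47) and Tbx3 (-2.74 ± 0.48) had the smallest fold changes (adjusted p = 1.2e-07 and 2.93e-05). Klf4 stood at 12.3, 9.25 and 11.7 CPM on day 6 and at 4.98, 10.9 and 12.8 on day 8, overlapping, after 125, 165 and 140 on day 0. Between days 6 and 8 a further drop was called for Esrrb, Zfp42, Klf2, Tfcp2l1 and Tcl1 (5 genes, 2.75% of all genes), with 1 called without day 6 replicate 3 or day 8 replicate 2, 2 without day 8 replicate 1 and 3 without day 6 replicate 2.

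The courses of the 2 differentiations were compared in 1 fit of 72 libraries, where each series had its own day 0. By day 6 only Nr0b1 of the 10 genes differed, 4.60 ± 1.03 lower in its change in NPC than in EB on the log2 scale (adjusted p = 0.00309), beside 2.61% of all genes lower. Its WT libraries on NPC day 6 held 2.23, 1.31 and 1.59 CPM, all below the 13.9 to 93.8 CPM of EB day 6. The differences of Zfp42 (-2.72 ± 0.88, adjusted p = 0.0513) and Esrrb (-2.59 ± 0.85, adjusted p = 0.0574) missed the threshold and were called with DESeq2. Without EB day 6 replicate 2, 3 genes were called, and without EB day 0 replicate 1, 2 genes.

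The number of naive genes called lower in embryoid bodies was counted in each line. Changes from day 0 to 6 were not tested between lines, so the day 6 counts do not show which line fell more slowly. By day 6, CaPS had 2 genes called lower (Klf4 and Tcl1, beside 3.31% of all genes), mCaPS 7 (7.3%), KO 7 (3.15%) and CaPS-R 5 (5.44%). With the replicate number as a block, CaPS had 5, beside 413 of 17791 genes lower. Leaving out 1 library gave 1 to 4 genes in CaPS, 3 to 6 in mCaPS, 2 to 6 in KO and 3 to 6 in CaPS-R. The lowest counts came without CaPS day 0 replicate 3 or day 6 replicate 2 or 3, without mCaPS day 6 replicate 2 (4 without replicate 3), without KO day 0 replicate 3 (3 without KO day 0 replicate 2 or any 1 KO day 6 library), and without CaPS-R day 6 replicate 2. CaPS had 4 without its day 0 replicate 1, and 5 without the first replicates of WT and CaPS on all days. By day 10 the counts were 10 in CaPS (12.1% of all genes), 9 in mCaPS (18.5%), 8 in KO (9.87%) and 1 in CaPS-R (8.74%). With the block, which pairs the KO libraries, 5 were called in KO, beside 3533 of 17791 genes lower. Prdm14 was then called (-1.47 ± 0.43, adjusted p = 0.0379), while Esrrb (-4.04 ± 1.04), Nr0b1 (-4.22 ± 1.21), Tfcp2l1 (-2.67 ± 0.75) and Zfp42 (-4.13 ± 1.29) missed the threshold (adjusted p from 0.0556 to 0.0833). Fitting only the compared groups gave 5 in CaPS and 4 in KO, where 491 and 3262 of 17791 genes were lower. In the main fit 2153 and 1756 were lower. The largest fold changes were those of mCaPS, for Nr0b1 (-8.08 ± 1.09), Tcl1 (-7.42 ± 0.89), Esrrb (-6.72 ± 0.90) and Zfp42 (-6.70 ± 0.83; adjusted p from 5.38e-07 to 2.58e-06). In KO, Tbx3 (0.15 ± 0.73, adjusted p = 0.905) and Prdm14 (-1.21 ± 0.55, adjusted p = 0.105) were not called by day 10 without the block. In CaPS, Tbx3 fell by 2.16 ± 0.77 (adjusted p = 0.036), and the difference of its change from that of WT was not called (-1.24 ± 1.04, adjusted p = 1).

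From day 6 to 10 the calls ranged from further falls to rises. In mCaPS 5 genes fell further (12.9% of all genes), among them Nr0b1 (-6.11 ± 1.01) and Tcl1 (-4.15 ± 0.81), and Tbx3 rose by 2.23 ± 0.77 (adjusted p = 0.0284; 16.2% of all genes rose). In CaPS 1 gene fell, Zfp42 by 2.91 ± 0.69 (adjusted p = 0.0126; 3.27% of all genes fell), and 2 with the block. The CaPS count was 0 without day 6 or day 10 replicate 2, 2 without day 6 replicate 3 and 4 without day 10 replicate 3. In KO 0 genes were called (edgeR; 1 at an unadjusted p below 0.05, 1 with DESeq2; 9.07% of all genes in either direction). With the block 3 were called in KO: Tbx3 at 2.21 ± 0.34 and Klf4 at 0.88 ± 0.20 rose, and Klf5 fell by 1.34 ± 0.17. In CaPS-R all 10 fold changes lay above 0, with a median of 1.32, and 2 were called higher: Tbx3 by 2.53 ± 0.72 and Tcl1 by 2.20 ± 0.63 (adjusted p = 0.0205 and 0.0223; 5.85% of all genes rose). Without CaPS-R day 6 replicate 2 or 3 neither was called, and without day 10 replicate 3 or day 6 replicate 1 only 1 was.

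**Figure D2:**
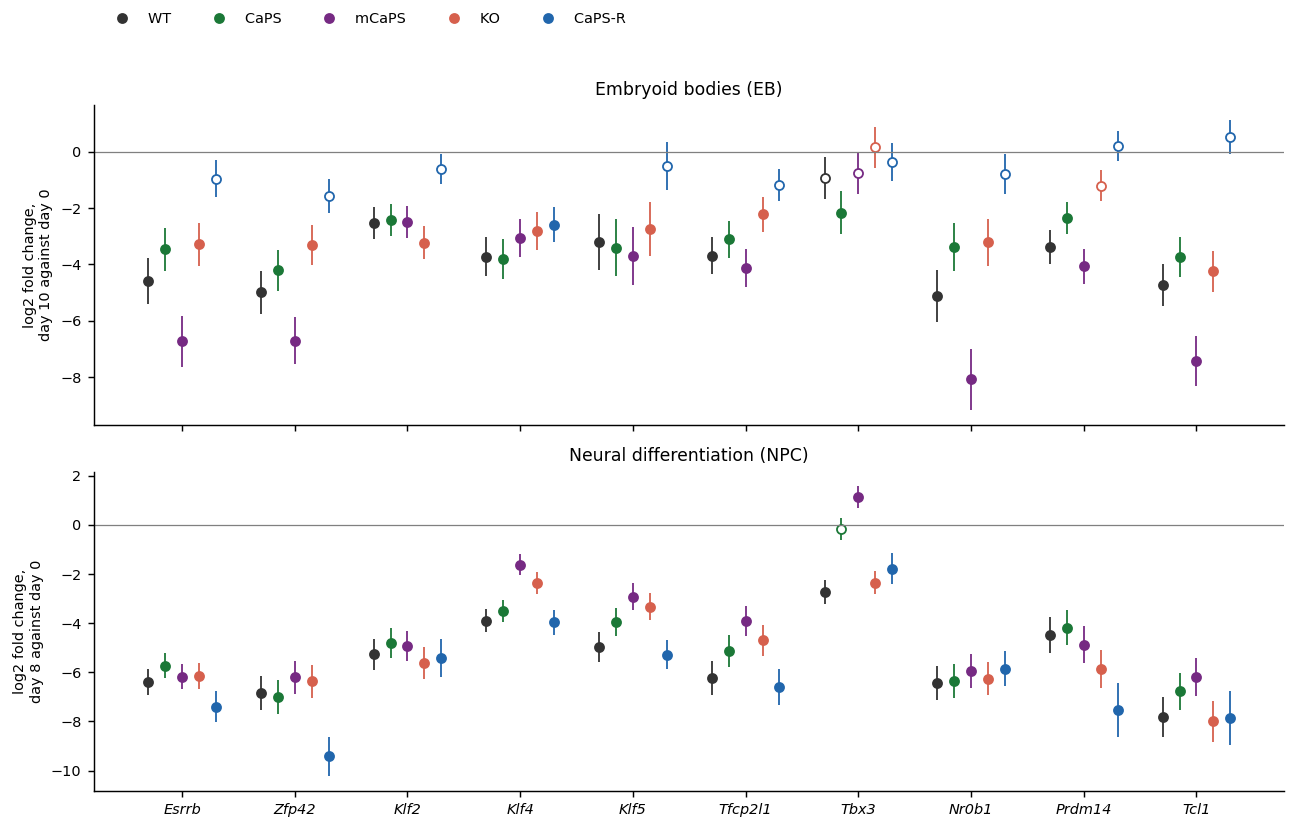
Change of each gene from day 0 to the last day (EB day 10, top; NPC day 8, bottom) in the 5 lines, as log2 fold change with its SE. Filled points have an adjusted p below 0.05. In EB the CaPS-R points lie nearest to 0 for all genes but Tbx3 and the mCaPS points of Esrrb, Zfp42, Nr0b1 and Tcl1 lowest; in NPC Tbx3 lies above 0 in mCaPS.

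On day 0 and day 6 of the EB series none of the 10 genes passed the test between lines compared without CaPS-R. Counts were 0 of 10 by edgeR and by DESeq2 in CaPS, mCaPS and KO against WT, in CaPS against mCaPS and in mCaPS against KO. At an unadjusted p below 0.05 they were 0 to 3. The shares of all genes called in either direction on days 0 and 6 were 0% and 0% (CaPS against WT), 0.916% and 0.54% (mCaPS against WT), 0.641% and 0.646% (KO against WT), 0.793% and 1.12% (CaPS against mCaPS), and 0.0225% and 0.0112% (mCaPS against KO). With the block, Zfp42 (-1.18 ± 0.08), Klf2 (-0.74 ± 0.10) and Esrrb (-0.59 ± 0.12) were lower in mCaPS than in KO on day 6 (adjusted p = 0.00697, 0.0129 and 0.0392).

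On day 10 the mCaPS means of Nr0b1, Esrrb, Zfp42, Tcl1 and Prdm14 were the lowest of the 5 lines, as were those of Klf5 and Tfcp2l1. Klf5 was at 5.87 ± 1.42 CPM in mCaPS and 13.3 ± 10.9 in WT, and Tfcp2l1 at 21.7 ± 10.1 and 25.9 ± 12.9. Nr0b1 was at 0.435, 0.162 and 0.232 CPM in mCaPS, 2.8, 2.47 and 3.52 in WT, 6.33, 2.08 and 20.5 in CaPS, and 0.296, 8.13 and 27.2 in KO. All mCaPS libraries of Nr0b1 lay below those of WT and CaPS, and KO replicate 1 lay among them. Esrrb stood at 3.23, 2.38 and 2.26 CPM in mCaPS, 11.2, 13.1 and 79 in CaPS, and 3.42, 43.2 and 91.5 in KO. Zfp42 was at 3.37, 2.32 and 1.53 in mCaPS, 20.3, 7.55 and 16.5 in CaPS, and 3.2, 61.9 and 113 in KO. The mCaPS and CaPS libraries of Esrrb and Zfp42 did not overlap, CaPS replicate 3 was far above its group for Esrrb, and KO replicate 1 was far below its own. Tcl1 gave 0.139, 0.121 and 0.116 CPM in mCaPS, 1.08, 0.75 and 5.2 in CaPS, and 0.0624, 1.9 and 4.01 in KO. The Tcl1 values of mCaPS and of KO replicate 1 rest on few counts. Prdm14 gave 0.174, 0.444 and 0.483 in mCaPS, 1.64, 1.13 and 5.16 in CaPS, and 1.19, 3.81 and 6.01 in KO. The mCaPS libraries of Prdm14 and Esrrb lay below all 3 of KO, while KO replicate 1 overlapped or lay below mCaPS for Nr0b1, Zfp42 and Tcl1.

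These 5 genes were higher in CaPS than in mCaPS: Nr0b1 by 5.10 ± 0.98, Tcl1 by 4.20 ± 0.82, Esrrb by 3.71 ± 0.78, Prdm14 by 2.85 ± 0.61 and Zfp42 by 2.61 ± 0.69 (adjusted p = 0.00204, 0.0024, 0.00553, 0.00584 and 0.0304; 2.7% of all genes were higher). The same 5 were lower in mCaPS than in KO, with fold changes of -5.39 ± 0.98 (Nr0b1), -4.62 ± 0.75 (Zfp42), -4.13 ± 0.80 (Esrrb), -3.94 ± 0.81 (Tcl1) and -3.31 ± 0.61 (Prdm14; adjusted p from 0.00179 to 0.00738; 1.41% of all genes were lower). Both comparisons share the mCaPS libraries. The count against CaPS dropped from 5 to 1 without CaPS replicate 3, and to 3 without mCaPS replicate 1 or 2. Fitting only the compared groups gave 0 calls against CaPS and 1 against KO. Without the first replicates of WT and CaPS it was 5, with Klf5 in place of Zfp42. The count against KO dropped to 1 without KO replicate 3 and to 3 without mCaPS replicate 2 or 3, and the block left 1, Prdm14. Against WT, Tcl1 was lower in mCaPS (-3.31 ± 0.82, adjusted p = 0.0442; 0.551% of all genes were lower), a call that was kept without WT replicate 1 and lost without any 1 of the other 5 libraries. DESeq2 called 4 genes lower there, Esrrb, Nr0b1, Tcl1 and Zfp42, beside 180 of all genes. Klf2, Klf4, Klf5, Tfcp2l1 and Tbx3 were not called in these 3 comparisons when all libraries were fitted. Without the first replicates of WT and CaPS, Klf5 was called in each: 1.81 ± 0.37 higher in CaPS than in mCaPS, and lower in mCaPS than in KO (-1.36 ± 0.34) and WT (-1.71 ± 0.37; adjusted p = 0.00398, 0.0267 and 0.0147).

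CaPS against WT gave 0 genes on day 10 (edgeR; 0 with DESeq2 and 1 at an unadjusted p below 0.05; 0.00562% of all genes in either direction). The fold changes of CaPS over WT were positive for 8 of 10 genes and had a median of 0.41. KO against WT gave 0 as well (1 with DESeq2, Zfp42, and 5 at an unadjusted p below 0.05; 0.877% of all genes), with all 10 fold changes above 0 and a median of 1.30. Zfp42 had the largest of these, 2.16 ± 0.67 (adjusted p = 0.164). Without KO day 10 replicate 1, 2 genes were called. Tbx3 in KO stood at 80.9, 93.7 and 107 CPM on day 10, all above the WT values given above, with a fold change of 1.26 ± 0.75 (adjusted p = 0.631). The change from day 0 to 10 was also compared between lines. Among WT, CaPS, mCaPS and KO no gene of the 10 differed in it (edgeR; 0 to 6 at an unadjusted p below 0.05; 0%, 0%, 0.00562%, 0.0169% and 0.0843% of all genes in either direction for CaPS, mCaPS and KO against WT, CaPS against mCaPS and mCaPS against KO), while DESeq2 called 3 for CaPS against mCaPS and 4 for mCaPS against KO. With DESeq2, 186 of all genes were higher and 20 lower for CaPS against mCaPS, and 23 and 140 for mCaPS against KO. Leaving out KO day 10 replicate 1 gave 5 calls for mCaPS against KO.

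**Figure D3:**
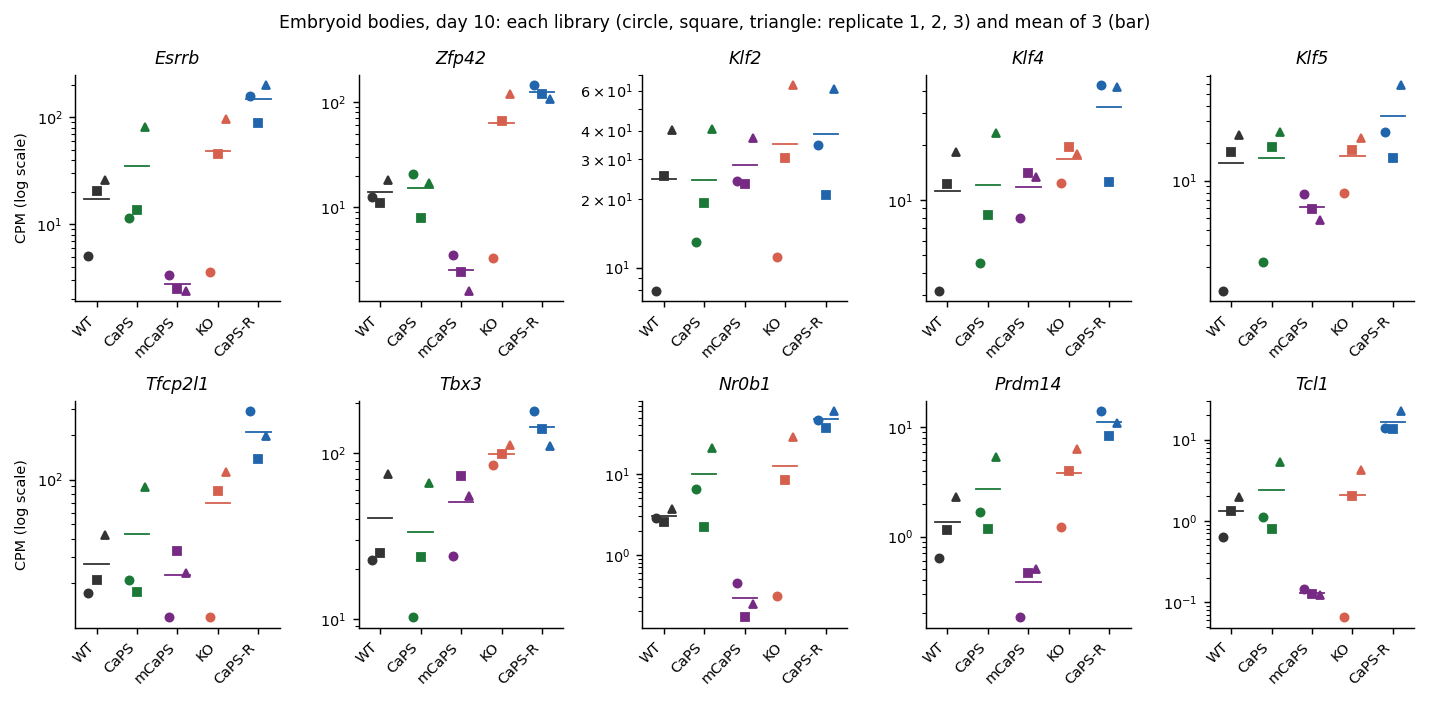
CPM (log scale, scaled over 5 lines) of the 10 genes on EB day 10 in each library of 5 lines. Circles, squares and triangles are replicates 1, 2 and 3 and bars are means. The 3 mCaPS libraries lie lowest or nearly so for Esrrb, Zfp42, Nr0b1, Prdm14 and Tcl1, KO replicate 1 lies near them for all of these but Prdm14, and the CaPS-R means are the highest for these genes.

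CaPS-R embryoid bodies ended with higher levels of several naive genes than WT. The levels that follow are scaled over 5 lines. Tcl1 stood at 15.7, 10.9 and 8.15 CPM on day 0, 4.96, 2.58 and 3.38 on day 6, and 14, 13.4 and 22.4 on day 10. Its day 6 libraries lay below both other days, which overlapped, and WT on this scale held 0.643, 1.31 and 1.97 on day 10. Prdm14 gave 9.15, 15 and 4.6 CPM, then 4.84, 2.41 and 3.26, then 14.1, 8.4 and 10.9, beside 0.643, 1.15 and 2.29 in WT on day 10. Nr0b1 was at 105, 93.6 and 49.5 on day 0, 31.7, 24.6 and 23.4 on day 6, and 46, 37.1 and 59.9 on day 10, beside 2.89, 2.58 and 3.66 in WT. The day 6 mean was the lowest of the 3 days for each of these genes, and every CaPS-R library of day 10 lay above every WT library. Zfp42 gave 430, 394 and 271, then 86.9, 56.7 and 65.3, then 145, 118 and 106 CPM. Esrrb gave 394, 309 and 172, then 90.3, 69.6 and 79.5, then 160, 88.2 and 202, and kept 51.5% of its day 0 mean on day 10. Klf4 was the 1 gene called lower by day 10: it went from 190, 240 and 156 CPM to 43, 12.6 and 41.9 (-2.58 ± 0.63, adjusted p = 0.00339).

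On day 10, 6 genes were higher in CaPS-R than in WT (8.24% of all genes were higher). These were Nr0b1 (3.97 ± 0.80), Tcl1 (3.64 ± 0.68), Zfp42 (3.15 ± 0.63), Esrrb (3.12 ± 0.71), Prdm14 (3.01 ± 0.59) and Tfcp2l1 (2.95 ± 0.61), with adjusted p from 0.000238 to 0.00208. On days 0 and 6 the count was 0 (edgeR and DESeq2; 2 and 1 at an unadjusted p below 0.05; 9.7% and 8.86% of all genes in either direction). The change from day 0 to 10 differed from that of WT for 4 genes (0.501% of all genes were higher): Tcl1 by 5.24 ± 0.91 (adjusted p = 0.00284), Prdm14 by 3.58 ± 0.79 (0.025), Nr0b1 by 4.32 ± 1.05 (0.044) and Zfp42 by 3.41 ± 0.85 (0.0471). Leaving out any 1 of the 12 libraries left 1 or 2 of these calls, whereas 6 to 8 genes were called on day 10 itself. Marker sums on day 10 were taken here over the list genes present in the CaPS-R tables. Those of WT therefore differ from the WT sums given with the other lines below. Blood and endothelium markers summed to 72.3 to 103 CPM in CaPS-R and 301 to 400 in WT, and fibroblast markers to 62.1 to 157 and 167 to 294, without overlap. The other sums overlapped. Cardiac muscle and mesoderm markers summed to 192 to 378 CPM in CaPS-R and 239 to 1088 in WT, and endoderm markers to 126 to 185 and 178 to 388. Neural markers summed to 138 to 358 and 72 to 161 CPM, and germ cell markers to 102 to 164 and 61.6 to 120. At most 2 markers of a list were at 0 in a library. The part of these cells in the naive gene result was not tested.

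Among the other lines on EB day 10, germ cell marker sums in mCaPS and epithelial marker sums in KO did not overlap WT. The other ranges given here for KO and mCaPS did. The neural sum (8 genes) was 760 CPM in CaPS replicate 3, the library with the highest Esrrb, Nr0b1, Prdm14 and Tcl1 of its group, and 69.9 to 213 CPM in the other 11 libraries of the 4 lines. Cardiac muscle and mesoderm markers summed to 102 CPM in that library and to 140 to 306 in KO, 499 to 733 in mCaPS and 231 to 1043 in WT. Fibroblast markers (10 genes) summed to 150 to 708 CPM in KO, 261 to 694 in mCaPS and 162 to 281 in WT, endoderm markers to 188 to 496, 215 to 356 and 218 to 384, and blood and endothelium markers to 365 to 739, 403 to 776 and 319 to 568. Primordial germ cell markers, of interest because Prdm14 is also a germ cell gene, summed to 113 to 159 CPM in KO, 130 to 155 in mCaPS and 65.8 to 122 in WT. Trophoblast and epithelial markers summed to 462 to 702 and 797 to 967 CPM in KO and to 644 to 1171 and 971 to 1281 in WT. Krt8 and Krt18 are in both of these lists. The part of these cells in the naive gene levels was not tested.

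In the NPC series 9 or 10 of the genes fell in every line. By day 6 and by day 8, 9 genes were called lower in CaPS (19% and 22.6% of all genes), 9 in mCaPS (18.8% and 21.5%), 10 in KO (14.3% and 20.1%) and 10 in CaPS-R (18.7% and 23.3%). The gene left out in CaPS and mCaPS was Tbx3, which is also known from endoderm and mesoderm. In mCaPS Tbx3 rose by 1.48 ± 0.46 by day 6 and by 1.12 ± 0.45 by day 8 (adjusted p = 0.0115 and 0.0437; 20.4% and 24.7% of all genes rose). From day 6 to 8, 3 genes fell in CaPS (Esrrb, Zfp42 and Tfcp2l1; 0.819% of all genes), 5 in KO (1.63%) and 2 in CaPS-R (3.41%). In mCaPS 0 changed (edgeR; 4 at an unadjusted p below 0.05 and 1 with DESeq2; 0.264% of all genes in either direction). Leaving out 1 library gave 0 to 2 genes in CaPS (0 without day 6 replicate 2 or day 8 replicate 1, and 1 without day 6 replicate 1 or 3 or day 8 replicate 3). It gave 2 to 6 in KO (2 without day 6 replicate 3 or day 8 replicate 1 or 2, and 3 without day 6 replicate 1). In CaPS-R it gave 0 to 2 (0 without day 6 replicate 1 or 2 or day 8 replicate 3, and 1 without day 8 replicate 2).

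Tbx3 was called in mCaPS against both WT and KO on days 6 and 8. In WT its CPM were 67.2, 90.9 and 80.4 on day 0, 25.7, 11.3 and 19.8 on day 6, and 6.35, 14.8 and 14.5 on day 8. The mCaPS values were 31.1, 33.9 and 27.4, then 85.7, 50.4 and 122, then 78, 44.5 and 79. All mCaPS libraries lay below WT on day 0 and above WT on days 6 and 8. CaPS gave 68.6, 44.9 and 60.6, then 35.7, 89.9 and 68.2, then 13, 83.1 and 59.9, and KO 37.4, 38.3 and 37.3, then 5.45, 8.46 and 13.9, then 7.53, 5.32 and 9.35. CaPS libraries exceeded all WT libraries on day 6, and on day 8 all but CaPS replicate 1 did. Tbx3 was higher in mCaPS than in WT on day 6 by 2.18 ± 0.47 and on day 8 by 2.50 ± 0.48 (adjusted p = 0.0186 and 0.00132; 1.35% and 9.39% of all genes were higher). The day 6 call was lost without any 1 library other than mCaPS replicate 2, without which 2 genes were called. Its change over 8 days differed from that of WT by 3.87 ± 0.66 (adjusted p = 0.0013; 4.68% of all genes were higher). Against KO, Tbx3 was 3.21 ± 0.49 and 3.18 ± 0.49 higher in mCaPS on days 6 and 8 (adjusted p = 0.00055 and 0.00102; 2.47% of all genes were higher on each day), and the count against KO was 3 without mCaPS day 6 replicate 2 and 4 without KO day 8 replicate 3. In CaPS the difference from WT was 1.77 ± 0.46 on day 6 and 2.13 ± 0.47 on day 8 (adjusted p = 0.219 and 0.0798). CaPS against WT thus gave 0 of the 10 genes on each day (edgeR; 0, 1 and 1 at an unadjusted p below 0.05 on days 0, 6 and 8, and the same with DESeq2; 0% to 0.0112% of all genes). Without CaPS replicate 1, 1 gene was called on day 6 and 1 on day 8. KO against WT gave 0 on days 6 and 8 (edgeR and DESeq2; 2 and 1 at an unadjusted p below 0.05; 0.0281% and 0.0505% of all genes). CaPS against mCaPS gave 0 on days 0, 6 and 8 (edgeR and DESeq2; 1, 2 and 2 at an unadjusted p below 0.05; 2.1%, 0.0112% and 1.59% of all genes). The change over 8 days gave 0 calls by edgeR for CaPS and KO against WT, CaPS against mCaPS and mCaPS against KO (1, 2, 1 and 1 at an unadjusted p below 0.05; 0, 0, 1 and 1 with DESeq2; 0%, 0.337%, 0.483% and 0.00561% of all genes).

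Markers of other cell types moved with Tbx3 on NPC day 8. Endoderm markers (8 genes) summed to 590, 375 and 773 CPM in mCaPS, to 31.5, 584 and 451 in CaPS, to 37, 90.3 and 123 in WT and to 59.6, 69 and 108 in KO. The CaPS library with low Tbx3, replicate 1, was also the one with the low endoderm sum. Gata4, an endoderm and heart factor, was at 328, 200 and 343 CPM in mCaPS and at 7.48, 27.6 and 27.8 in WT. Fibroblast markers summed to 1001, 705 and 2450 CPM in mCaPS, 144, 1056 and 903 in CaPS, 69.7, 234 and 201 in WT and 163, 157 and 413 in KO. Neural markers went the other way, at 282, 285 and 80.4 CPM in mCaPS, 1292, 300 and 522 in CaPS, 1412, 983 and 917 in WT and 1043, 1068 and 425 in KO. Blood and endothelium markers summed to 103 to 231 CPM in mCaPS and 12.6 to 27.1 in WT, epithelial markers to 594 to 1345 and 65.4 to 315, trophoblast markers to 471 to 1175 and 43.1 to 182, and cardiac muscle and mesoderm markers to 28.7 to 54.9 and 0.979 to 7.91. The trophoblast and epithelial lists share Krt8 and Krt18, so these sums are not separate measures. The trophoblast list also shares Hand1 with the cardiac list and Tfap2c with the germ cell list. Primordial germ cell markers summed to 40.8 to 54 and 82.4 to 95.6 CPM. Of the 8 endoderm markers 0 were at 0 in mCaPS, and in WT 1 of the 9 mesoderm markers or more was at 0 in every library. The part of these cells in the Tbx3 levels was not tested.

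Klf5 and Tfcp2l1 in their day 8 level, and Klf4 in its change, were also higher in mCaPS than in WT. Klf4 stood at 56.8, 54.7 and 51.5 CPM on day 0, 11.4, 8.54 and 8.01 on day 6, and 9.69, 12.8 and 30.9 on day 8 in mCaPS. It began below every WT library and overlapped WT on both later days, and its change over 8 days was 2.30 ± 0.60 less negative than in WT (adjusted p = 0.015). Klf5 was at 9.04, 9.6 and 27.4 CPM in mCaPS and 3.95, 3.9 and 7.28 in WT on day 8, without overlap. Tfcp2l1 was at 7.11, 14.4 and 34.1 in mCaPS and 3.26, 5.71 and 9.01 in WT, overlapping by 1 library. On day 8 Klf5 was 1.60 ± 0.53 and Tfcp2l1 1.63 ± 0.57 higher in mCaPS than in WT (adjusted p = 0.0353 and 0.0454). Of the 3 genes called on day 8, 1 remained without WT replicate 1 or 2 or mCaPS replicate 3. Of the 2 called for the change, 1 was called without mCaPS day 8 replicate 3, and 3 were called without mCaPS day 8 replicate 1 or WT day 8 replicate 3. On days 6 and 8 the block added, for mCaPS over KO, Klf4 (1.20 ± 0.23 and 1.13 ± 0.25) and, on day 6, Tfcp2l1 (0.77 ± 0.09), while Klf2 was lower (-1.57 ± 0.27).

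On day 0 of the NPC series Klf4 was lower in KO than in WT. It was at 125, 165 and 140 CPM in WT, 103, 114 and 104 in CaPS, 56.8, 54.7 and 51.5 in mCaPS, and 35.9, 33.1 and 56.8 in KO. The KO libraries lay below all of WT and CaPS, and the difference of KO from WT was -1.78 ± 0.43 (adjusted p = 0.0128; 3.11% of all genes were lower). The call was lost without KO replicate 1 or 2 or WT replicate 2. In mCaPS it was -1.40 ± 0.42 (adjusted p = 0.0655), and no gene of the 10 was called there (edgeR; 2 at an unadjusted p below 0.05 and 2 with DESeq2; 3.02% of all genes). mCaPS against KO gave 0 on day 0 (edgeR and DESeq2; 0 at an unadjusted p below 0.05; 0.163% of all genes). In the EB series, day 0 Klf4 in KO was at 81.3, 114 and 141 CPM, overlapping WT, with a difference of -0.36 ± 0.62 (adjusted p = 0.95). Markers of fibroblasts, the cell type of the feeders, moved with Klf4 on NPC day 0: they summed to 3140, 1064 and 272 CPM in WT, 3149, 1409 and 212 in CaPS, 135, 84.7 and 138 in mCaPS, and 111, 69.2 and 98.6 in KO. Epithelial markers were at 741 to 875 CPM in WT and 1454 to 2076 in KO. Their part in the Klf4 difference was not tested. With the block, CaPS was below WT on NPC day 0 for Zfp42 (-0.54 ± 0.10) and Klf4 (-0.42 ± 0.08), and mCaPS below KO for Esrrb (-0.45 ± 0.09) and Tcl1 (-0.79 ± 0.12).

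**Figure D4:**
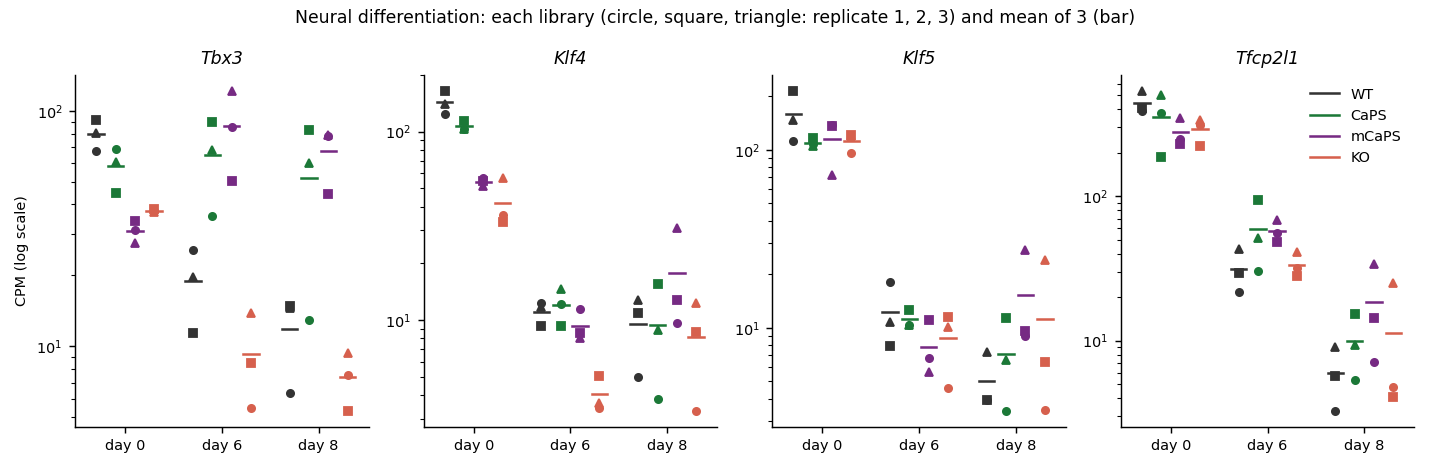
CPM (log scale) of Tbx3, Klf4, Klf5 and Tfcp2l1 in each NPC library by day and line. Circles, squares and triangles are replicates 1, 2 and 3 and bars are means. On day 8 the mCaPS libraries of Tbx3 lie between 44.5 and 79 CPM and those of WT between 6.35 and 14.8.

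With retinoic acid, CaPS-R had lower levels of several naive genes than WT. On the scale of 5 lines, Zfp42 was at 473, 256 and 288 CPM on day 0, 4.35, 4.24 and 0.685 on day 6, and 0.648, 0.728 and 0.203 on day 8, beside 1.74, 3.16 and 5.72 in WT on day 8. Its CaPS-R libraries lay below all of WT on both days. Esrrb was at 6.45, 7.42 and 0.456 CPM on day 6 and 1.78, 1.73 and 0.813 on day 8, also below WT throughout. Prdm14 had 0 counts in replicates 2 and 3 on both days, with 0.322 CPM in replicate 1 on day 6 and 0.162 on day 8, so its fitted fold changes depend on the prior count. CaPS-R day 6 replicate 3, with the lowest Esrrb and Zfp42 of its group, is the library with 80.5% Rn45s. Relative to WT, 4 genes were lower on day 6 (7.65% of all genes): Esrrb (-1.85 ± 0.52), Zfp42 (-1.96 ± 0.60), Klf2 (-2.49 ± 0.67) and Prdm14 (adjusted p from 0.00941 to 0.0225). On day 8 there were 3 (6.1%): Zfp42 (-2.83 ± 0.72), Esrrb (-1.76 ± 0.56) and Prdm14 (adjusted p from 0.00564 to 0.0336). Klf2 was lower already on day 0, at 57.7, 26.1 and 38.6 CPM against 153, 134 and 159 (-1.86 ± 0.62, adjusted p = 0.0258; 14.4% of all genes were lower). The change over 8 days differed from WT for 0 genes (edgeR and DESeq2; 2 at an unadjusted p below 0.05; 0.691% of all genes in either direction). With any 1 library left out, the counts against WT changed as follows. On day 0 the call was lost without CaPS-R replicate 2 or 3 or WT replicate 1 or 3, and 2 genes were called without CaPS-R replicate 1. On day 6 it was 0 without WT replicate 3, 1 without CaPS-R replicate 2 or 3, and 6 without CaPS-R replicate 1. On day 8 it was 0 without CaPS-R replicate 3, 1 without CaPS-R replicate 2 or WT replicate 3, and 2 without WT replicate 2.

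Related genes of the pathway were followed as lists, and Nanog is in both the other naive network and the core list. The naive list also shares Dppa3 with the germ cell markers and Pecam1 with the blood and endothelium markers. In WT by EB day 10, 22 of 24 other naive network genes were called lower (median -3.39), 3 of 3 core factors (Pou5f1, Sox2 and Nanog; median -2.62) and 6 of 10 genes of the LIF and STAT3 pathway (1 higher, median -1.39), beside a median of -0.02 over all genes, of which 14.5% were lower and 14.7% higher. The largest drops were in Dppa2, a chromatin protein of early embryos (-5.20 ± 0.84), Spp1, a secreted phosphoprotein (-5.03 ± 0.74), and Dnmt3l, a cofactor of de novo DNA methylation (-4.84 ± 0.85). The highest rises were in Sall2 (1.59 ± 0.40), Tead2 (1.45 ± 0.29) and Jak2 (1.04 ± 0.34). On EB day 6, 7 of 14 formative genes were higher (median 1.82), 3 of 24 other naive genes lower (median -1.09), 5 of 10 LIF and STAT3 genes lower (median -1.30), and core factors gave 0 calls, beside 4.62% of all genes lower and 3.26% higher. Of 14 other Kruppel-like factors, 4 were lower and 1 higher by day 10 (median -0.27).

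With retinoic acid 20 of 24 other naive genes were lower by day 6 and 22 by day 8 (medians -3.29 and -5.20), and 2 of 3 core factors. Fgf4, a growth factor of ES cells (-8.55 ± 0.75), Tdgf1, a Nodal co-receptor (-7.99 ± 0.64), and Pou5f1, the core POU factor (-7.55 ± 0.71), fell most over 8 days. Sox3 (3.98 ± 0.99), Sall2 (2.28 ± 0.35) and Jak2 (2.14 ± 0.34) rose most. Formative genes gave 3 higher and 8 lower of 14 by day 6 and 4 higher and 10 lower by day 8, LIF and STAT3 genes 1 higher and 6 lower of 10 on each day, and the other Kruppel-like factors 3 lower and then 5 lower and 1 higher of 14. Of all genes 18.2% were lower and 19% higher by day 6, and 24.9% and 27.5% by day 8, with medians of 0.01 and 0.05. In the comparisons between lines on EB day 10 the wider naive list moved with the 10 genes: 12 of 24 were higher in CaPS than in mCaPS (median 2.24), 11 of 24 lower in mCaPS than in KO (median -2.13), and 17 of 22 higher in CaPS-R than in WT (median 2.11), with 3, 2 and 3 of the 3 core factors. LIF and STAT3 genes gave 0 higher and 1 lower, 0, and 1 higher in the same comparisons, where all-gene medians were 0.01, -0.02 and -0.08, and 2.7% of all genes were higher and 0.472% lower, 1.41% lower, and 8.24% higher. The list counts rest on the same libraries as the 10 genes and were not repeated with the block or with libraries left out. Without CaPS day 10 replicate 3, 145 of all genes were higher in CaPS than in mCaPS, in place of 481.

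The genes shared one pattern to differing degrees across the 72 libraries of WT, CaPS, mCaPS and KO. As a description, and with libraries that share days and cell states, the Pearson correlation of each gene's log2 CPM with the mean of the other 9 was 0.959 for Esrrb, 0.958 for Tcl1, 0.949 for Tfcp2l1, 0.928 for Prdm14, and 0.923 for both Zfp42 and Klf2. It was 0.881 for Nr0b1, 0.874 for Klf5, 0.826 for Klf4 and 0.438 for Tbx3. Tbx3 was nearest to Klf4 (0.685) and furthest from Nr0b1 (0.244). The genes outside the 10 whose pattern was most like their mean were Nr5a2 (0.971), Dnmt3l (0.958), Irak3 (0.957), Mybl2 (0.954), Hsd17b14 (0.953) and Dmtn (0.949). Nr5a2, a nuclear receptor, went in WT from 68.0 ± 4.16 CPM on day 0 to 4.73 ± 1.95 on EB day 10, and from 73.0 ± 5.09 to 1.90 ± 0.592 on NPC day 8.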

How the data were processed

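Total RNA was depleted of ribosomal RNA and made into directional libraries, per the labels' protocols. The deposited values are raw counts of reads per gene (mm10). The submitters' processing notes name HOMER 4.10.4, featureCounts 1.6.3, STAR 2.7.0, edgeR and cutadapt 1.14. The count tables held 24961 (EB) and 24984 (NPC) genes for WT, CaPS, mCaPS and KO, and CaPS-R had tables of 20823 and 20930 genes. Each CaPS-R table ended in a partial line, which was dropped, and genes of the other tables are missing from it. Gene names turned into dates were dropped, and 9 count columns that matched no sample were not used.

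Counts were scaled by TMM, filtered with filterByExpr and fitted with edgeR 4.0.16 (R 4.3.3, robust quasi-likelihood) on all 36 libraries of a series, leaving 17791 (EB) and 17818 (NPC) genes. CaPS-R was fitted with the other lines in 45 libraries (15379 and 15334 genes), and both series were fitted together in 72 libraries (18407 genes) to compare WT courses. Levels are CPM, the count scaled by the TMM library size. Benjamini-Hochberg adjustment ran over all genes tested, with a threshold of 0.05. SE is the log2 fold change divided by the root of F. The scripts were tested on simulated data.

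Same-numbered libraries were taken as paired where the correlations of their deviations from group means all exceeded 0.1, which held in 22 of 66 comparisons, and a fit with the replicate number as a block is given there where it changed a call. DESeq2 1.42.0, other scaling, no filter and left-out libraries were alternatives. The comparison of the last day with day 6 was added after the data were seen. Genes named outside the 10 were the 3 lowest and 3 highest called genes of the naive, core, LIF and formative lists in WT at the last day, the 6 most correlated genes, and markers that moved with a result. The 10 genes and the lists were chosen with earlier results of these data known.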

Additional observations from a re-analysis of the deposited data

Results flagged for a closer look

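The change from day 0 to the last day differed between lines for 6 genes, by the test of the difference itself (edgeR, adjusted over all genes). In the NPC series the change by day 8 in mCaPS lay above that in WT for Klf4 by 2.30 ± 0.60 and for Tbx3 by 3.87 ± 0.66 (log2 ± SE). In the EB series the change by day 10 in CaPS-R lay above that in WT for Zfp42 by 3.41 ± 0.85, Nr0b1 by 4.32 ± 1.05, Prdm14 by 3.58 ± 0.79 and Tcl1 by 5.24 ± 0.91. Leaving out any 1 library gave 1 to 3 calls for mCaPS against WT, in place of 2. It gave 1 or 2 for CaPS-R against WT, in place of 4. The CaPS-R libraries are in tables of their own, so line and table cannot be told apart. Between the differentiations of WT, the change of Nr0b1 by day 6 differed by -4.60 ± 1.03, being lower in NPC than in EB.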

How the results depend on the processing

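Counts are of the 10 genes called, with the main count first and the alternative after "to". Of 476 counts under alternatives 409 stayed within 1.5 times and 67 did not, and no gene reversed. With the replicate number as a block the EB counts went from 5 to 9 (WT day 6 over 0), 2 to 5 (CaPS day 6 over 0), 8 to 5 (KO day 10 over 0), 5 to 8, 1 to 2 and 0 to 3 (WT, CaPS and KO day 10 over 6), 5 to 2 (CaPS over mCaPS day 10, numbers not paired), and 0 to 3 and 5 to 1 (mCaPS over KO days 6 and 10). The NPC counts went from 5 to 2 (KO day 8 over 6, numbers not paired), 0 to 2 (CaPS over WT day 0), 0 to 5 and 1 to 2 (mCaPS over WT days 0 and 6, numbers not paired), and 0 to 2, 1 to 4 and 1 to 2 (mCaPS over KO days 0, 6 and 8). With the block Tbx3 was also called in WT day 10 over 0 (9 to 10), and no other paired call changed. Fitting the compared groups only, without block, moved EB counts from 2 to 1, 10 to 5 and 1 to 0 (CaPS day 6 over 0, 10 over 0, 10 over 6), 8 to 4 and 0 to 1 (KO 10 over 0, 10 over 6), 1 to 3 (mCaPS over WT day 10), 5 to 0 (CaPS over mCaPS day 10), and 0 to 1 and 5 to 1 (mCaPS over KO days 6 and 10). In NPC it moved them from 3 to 0 (CaPS 8 over 6), 0 to 3 and 3 to 1 (mCaPS over WT days 0 and 8), 1 to 2 (KO over WT day 0), 1 to 3 (mCaPS over KO day 6), and 2 to 4 and 0 to 1 (change, mCaPS against WT and KO). Without the first replicates of WT and CaPS, EB counts went from 5 to 3 and 5 to 1 (WT 6 over 0, 10 over 6), 2 to 5 (CaPS 6 over 0), 0 to 2 (KO 10 over 6), 1 to 2 (mCaPS over WT day 10), and 0 to 1 on days 0 and 6 (CaPS over mCaPS). Without the filter they went from 5 to 2 and 7 to 4 (EB WT and KO 6 over 0), 1 to 0 and 3 to 1 (mCaPS over WT, EB day 10 and NPC day 8), 4 to 2 (EB change of CaPS-R against WT), 2 to 1 (NPC CaPS-R 8 over 6) and 1 to 0 (NPC CaPS-R over WT day 0). With DESeq2 the EB counts went from 2 to 4 and 1 to 2 (CaPS 6 over 0, 10 over 6), 0 to 1 (KO 10 over 6), 1 to 4 (mCaPS over WT day 10), 0 to 1 (KO over WT day 10), 0 to 3 and 0 to 4 (change, CaPS against mCaPS and mCaPS against KO), and 5 to 8, 1 to 2 and 2 to 4 (CaPS-R 6 over 0, 10 over 0, 10 over 6). In NPC they went from 0 to 1 (mCaPS 8 over 6), 0 to 1 on days 6 and 8 (CaPS over WT), 0 to 2, 1 to 2 and 2 to 4 (mCaPS over WT days 0 and 6, change), 0 to 1 in both other mCaPS changes, and 1 to 2 (CaPS-R over WT day 0). The WT comparison of NPC with EB went from 1 to 3 with DESeq2 and to 2 without Rn45s. The cause of these shifts was not tested.

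Leaving out 1 library of those compared gave these lowest and highest counts. For EB time courses they were 1 to 3, 8 to 9 and 2 to 6 (WT day 6 over 0, 10 over 0, 10 over 6), 1 to 4, 8 to 10 and 0 to 4 (CaPS), 3 to 6 (mCaPS 6 over 0) and 5 to 6 (mCaPS 10 over 6), 2 to 6 and 7 to 8 (KO 6 over 0, 10 over 0), and 3 to 6 and 0 to 2 (CaPS-R 6 over 0, 10 over 6). Between lines on EB day 10 they were 1 to 5 (CaPS over mCaPS), 1 to 6 (mCaPS over KO), 0 to 1 (mCaPS over WT), 0 to 2 (KO over WT) and 6 to 8 (CaPS-R over WT), and for the change 0 to 1 (CaPS against mCaPS), 0 to 5 (mCaPS against KO) and 1 to 2 (CaPS-R against WT). For NPC day 8 over 6 they were 1 to 5 (WT), 0 to 2 (CaPS), 0 to 1 (mCaPS), 2 to 6 (KO) and 0 to 2 (CaPS-R), and 9 to 10 for days 6 and 8 over 0 in mCaPS and CaPS-R. Between NPC lines they were 0 to 1 (CaPS over WT days 6 and 8, and change), 0 to 2, 1 to 3 and 1 to 3 (mCaPS over WT days 6 and 8, change), 0 to 1 (KO over WT day 0), 1 to 3, 1 to 4 and 0 to 1 (mCaPS over KO days 6 and 8, change), 0 to 1 (change, CaPS against mCaPS), and 0 to 2, 0 to 6 and 0 to 4 (CaPS-R over WT days 0, 6 and 8). NPC against EB gave 1 to 3. CPM taken over counts outside Rn45s and without the TMM factor moved 140 of 240 mean levels by less than 1 SD and the other 100 by 1 SD or more. This changed Rn45s and the scaling together, so their parts cannot be told apart.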
